A study of Mus musculus with 12 samples.

Results

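The 40 genes described here encode the subunits of the vacuolar H+-ATPase (V-ATPase) and proteins that sit in the lysosomal membrane. They were chosen by gene symbol, and all 40 were found among the 24062 gene symbols of the count table. They are 8 subunits of the membrane-embedded V0 sector, 8 subunits of the cytosolic V1 sector, 2 V-ATPase accessory proteins, 7 lysosomal membrane glycoproteins and other structural proteins, 5 ion channels and exchangers, 8 transporters, and the 2 mannose 6-phosphate receptors, which deliver hydrolases to lysosomes. RNA-Seq was performed in mouse embryonic fibroblasts (MEFs) carrying a stably expressed shRNA. The shRenilla cells carried a control shRNA against Renilla luciferase, which mouse cells lack, and in the shBruce cells the shRNA was directed at Birc6, whose product is the ubiquitin ligase BRUCE. Each line was measured in full medium (FM) and after 2 h in a medium that lacked serum and amino acids (Starv), with 3 libraries in each of the 4 conditions. Each shRNA is represented by 1 cell line, so that the effect of the shRNA and other differences between the lines cannot be told apart.

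The V-ATPase is a rotary pump that spends ATP in its V1 sector to drive protons through its V0 sector, and it keeps the lumen of lysosomes acidic. The membrane around that lumen is lined by heavily glycosylated proteins such as LAMP1 and LAMP2. It holds channels and exchangers that move ions such as calcium and chloride, and transporters that release cholesterol, amino acids and sugars made by degradation. The same membrane is where amino acids are sensed for mTORC1, and when mTORC1 is off, transcription factors of the TFEB family enter the nucleus and bind an E-box with the letters CACGTG in promoters of many lysosomal genes.

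The promoters of the genes were searched for these letters because the motif is the recognition site of the TFEB family. RefSeq gave a promoter, from 250 bases before to 50 bases after a start site on GRCm38.p6, for 31 of the 40 genes, with 39 promoters in all. The letters CACGTG, which read the same on both strands, were in the promoters of 10 genes, which is 25.6% of the 39 promoters, beside 7.15% of all 32851 promoters and 10.0% of the 11722 promoters of genes that passed the filter on low counts. A longer form with the letters TCACGTG on either strand, which contains the E-box, was in promoters of the same 10 genes, beside 3.77% of all promoters and 5.95% of those of genes that passed the filter. The 10 genes were Atp6v0b, Atp6v0d1, Atp6v0e, Atp6v1a, Clcn7, Cln3, Igf2r, Lamp1, Mcoln1 and Slc36a1. The windows of 30 bases around each match are given for 8 of these genes, 7 of them because they passed the test in a comparison of media or lines and Lamp1 because it held the most copies. They are written 5′ to 3′ on the strand of the gene, with the E-box in capitals. A match is a description of the letters and not of binding.
Clcn7, chr17:25133364-25133393, plus strand: tccgtcgtcagtCACGTGggcaccgatgat
Clcn7, chr17:25133386-25133415, plus strand: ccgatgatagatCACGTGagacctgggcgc
Mcoln1, chr8:3500436-3500465, plus strand: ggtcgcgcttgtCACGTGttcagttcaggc
Mcoln1, chr8:3500462-3500491, plus strand: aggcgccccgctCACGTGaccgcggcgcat
Slc36a1, chr11:55204297-55204326, plus strand: ggaatggagcggCACGTGacctgggctagg
Slc36a1, chr11:55204325-55204354, plus strand: gggagccagcatCACGTGacagggcccgga
Atp6v0d1, chr8:105566050-105566079, minus strand: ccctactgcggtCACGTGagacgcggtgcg
Atp6v0b, chr4:117887330-117887359, minus strand: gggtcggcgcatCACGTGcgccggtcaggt
Atp6v0b, chr4:117887348-117887377, minus strand: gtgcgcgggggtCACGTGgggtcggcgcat
Atp6v1a, chr16:44139373-44139402, minus strand: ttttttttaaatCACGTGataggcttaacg
Lamp1, chr8:13159088-13159117, plus strand: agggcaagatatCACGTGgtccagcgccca
Lamp1, chr8:13159104-13159133, plus strand: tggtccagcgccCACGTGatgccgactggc
Lamp1, chr8:13159121-13159150, plus strand: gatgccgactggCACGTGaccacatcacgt
Lamp1, chr8:13159134-13159163, plus strand: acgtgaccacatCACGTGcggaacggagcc
Igf2r, chr17:12769696-12769725, minus strand: gccgactcaggtCACGTGacgctccgggga
Igf2r, chr17:12769737-12769766, minus strand: gaacgaggacgtCACGTGagcaggaggcgg
Of these 8 genes, Lamp1 held 4 copies, and Clcn7, Mcoln1, Slc36a1, Atp6v0b and Igf2r held 2 copies each. Neighbouring windows of the same gene share bases, except in Igf2r. No match was found in the promoters of Ctns, Slc38a9 or Slc17a5, which says only that these letters were not in these windows.

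Total counts were between 7717265 and 18510540 per library, with the lowest in shBruce Starv replicate 1. The labels do not state whether replicates were separate cultures, so p-values measure the spread between these libraries, which may be technical. As a check of the labels, the counts of Birc6, normalized to the effective size of each library, were taken first. Birc6 had 4682, 3273 and 5061 normalized counts in shRenilla FM, 4759, 4712 and 2787 in shRenilla Starv, 1207, 1265 and 1390.4 in shBruce FM and 1175, 703 and 1226 in shBruce Starv. Every shBruce library was below every shRenilla library, and over both media the log2 fold change was -1.87 ± 0.175 (SE), adjusted p = 0.000958. Within FM it was -1.75 ± 0.246 (SE), adjusted p = 0.0627, so that the targeted gene itself was not called in that comparison, and within Starv it was -1.98 ± 0.249 (SE), adjusted p = 0.0186. Of 10 fibroblast markers, 8 reached at least 10 counts in every library. Thy1, at 0 to 2.45 normalized counts, and Dcn, at 6.94 to 50.5, did not. The summed level of the 10 markers was between 130240 and 198530 normalized counts. In bulk RNA, fewer cells that express a gene and less RNA per cell cannot be told apart. Of 7 listed markers of macrophages and osteoclasts, cells rich in lysosomes, Adgre1 was not found under that symbol. The others summed to between 89.1 and 216, with Cd14 at 70.1 to 179. Counts also varied with transcript length in a library-specific way: the deviation of a gene from its mean over libraries changed per doubling of transcript length by between -0.020 and 0.21 on the log2 scale in the 6 shRenilla libraries, between -0.096 and -0.062 in the 3 shBruce FM libraries, and by -0.17, -0.23 and 0.034 in shBruce Starv replicates 1, 2 and 3. Birc6 has a transcript of 15768 bases. In a fit with a trend on transcript length and GC content removed from each library, its log2 fold changes were smaller. They were -1.38 over both media, -1.36 in FM and -1.40 in Starv.

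Levels were compared between genes as normalized counts per kilobase of transcript, averaged over the 12 libraries. Most abundant were Cd63, a tetraspanin of late endosomes and lysosomes, with 8934, and Lamp1, the major lysosomal membrane glycoprotein, with 6015. They were followed by Laptm4a (3015), the V-ATPase accessory protein gene Atp6ap1 (2265), the proteolipid subunit gene Atp6v0b (1883) and Lamp2 (1667), whose product takes part in autophagosome fusion and chaperone-mediated autophagy. At the other end were the amino acid transporter gene Slc38a9 (23.1) and Cln3 (16), mutated in juvenile Batten disease. Among the 3 a subunits, which form the proton path of V0, the level per kilobase was 543 for Tcirg1, the a3 subunit, 276 for Atp6v0a2 and 215 for Atp6v0a1. The a3 subunit, best known from osteoclasts, had the highest level of the a subunits in these fibroblasts.

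**Figure D1:**
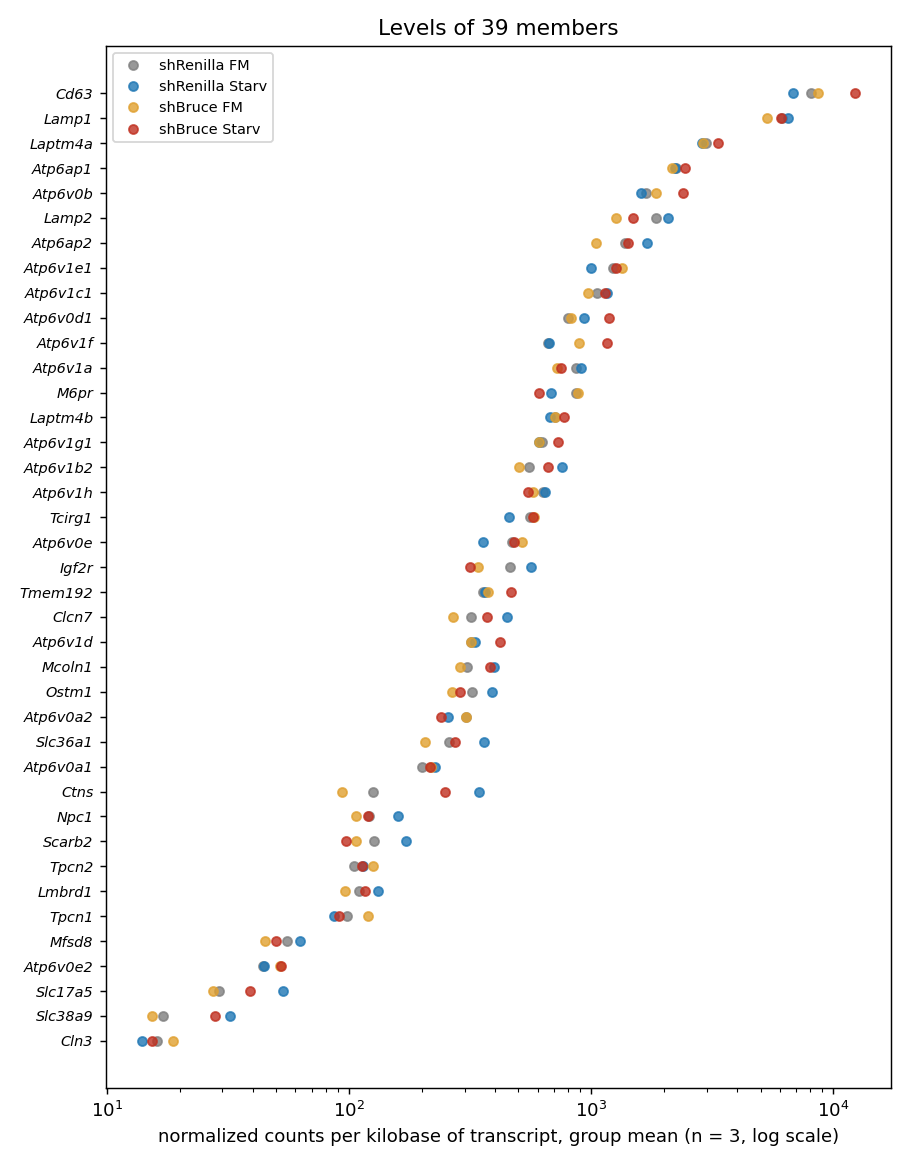
Levels of the 39 genes that passed the filter on low counts, as normalized counts per kilobase of transcript on a log scale, with a point for the mean of each of the 4 conditions (n = 3). Cd63 and Lamp1 lie at the top and Cln3 and Slc38a9 at the bottom, and the 4 conditions of a gene lie close together relative to the range over genes.

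Atp6v0c, the gene of the main proteolipid subunit of the V0 rotor, was listed at 0 or 1 counts in every library and did not pass the filter on low counts. Of the stretches of 50 bases in its transcript, 32.5% also occur in transcripts of other genes, mainly in the pseudogene Atp6v0c-ps2 (32.3%). The part of these stretches in the low count was not tested. Shared stretches may make the counts of a few other genes uncertain. The share was 38.2% for Cd63, with the pseudogene Cd63-ps, and Cd63 had between 7710 and 11798 raw counts per library. It was 19.2% for Atp6v1g1, 18.2% for Atp6v1f and 10.5% for M6pr, with M6pr-ps. For Cln3, Atp6v0a2, Tmem192, Npc1, Lamp1, Atp6v0b, Ostm1 and Mfsd8, exons overlap those of a gene on the opposite strand, and reads of both cannot be told apart unless strand was used in counting, which is not given in the sources used here.

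To ask which of these genes respond to starvation, Starv was compared with FM within each line. In shRenilla MEFs, 5 of the 39 genes tested rose and 0 fell at an adjusted p under 0.05 in edgeR's quasi-likelihood test, the threshold for a call, beside 17% of the 12154 genes tested that were called in this comparison, 9.69% of them as higher and 7.27% as lower. The 3 with the largest change were Ctns (GRCm38, chromosome 11, 73183596 to 73199042, minus strand, 12 exons), Slc38a9 (chromosome 13, 112660751 to 112738749, plus strand, 15 exons) and Slc17a5 (chromosome 9, 78536488 to 78588041, minus strand, 11 exons). All 5 were transporter or channel genes: 4 of the 8 transporters and 1 of the 5 channels and exchangers were called. None of the 17 V-ATPase genes tested was called. This pattern depended on the processing. After a trend on transcript length and GC content was removed from each library, 6 of the 39 genes were called as higher and 3 as lower, beside 25.4% of all genes tested, and 3 of the 9 were V-ATPase genes, Atp6v1b2 at 0.41 (adjusted p = 0.0437), Atp6v0a2 at -0.36 (adjusted p = 0.00429) and Atp6v1e1 at -0.31 (adjusted p = 0.011). The median log2 fold change of the 39 genes was 0.081, beside -0.0051 over all genes tested, with 26 of 39 above 0, and by sector the median was -0.066 for V0, 0.041 for V1, 0.28 for channels and exchangers and 0.44 for transporters. In 22 of the 39 genes the libraries of the 2 media did not overlap, beside 52.4% of all genes tested. The count of called genes was 3 when any shRenilla FM library or shRenilla Starv replicate 1 or 2 was left out, 9 when shBruce Starv replicate 1 was omitted, and 12 when replicate 3 of that condition was. Counts from fits that left out a library are given here and below without the share of all genes called. They describe how stable the calls were and are not a result about these genes as a set.

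Ctns, which encodes cystinosin, the exporter of cystine from lysosomes, had 365, 322 and 343 normalized counts in shRenilla FM and 1022, 910.4 and 888 in shRenilla Starv. The starved libraries were all far above the fed ones, and the fold was 2.74 (log2 fold change 1.45 ± 0.187 (SE), adjusted p = 0.000205). In shBruce MEFs the counts were 229, 238 and 295 in FM and 511, 609 and 908 in Starv, again without overlap, and the log2 fold change was 1.42 ± 0.191 (SE), adjusted p = 0.000241. Ctns had the largest change of the 39 genes in both lines, and it stayed called in each of the 24 alternatives in both.

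Slc38a9, an arginine-sensing transporter that signals to mTORC1, had 156, 146 and 153 normalized counts in shRenilla FM and 311, 291 and 257 in Starv. Its log2 fold change was 0.92 ± 0.132 (SE), adjusted p = 0.00048. In shBruce MEFs it had 149.7, 120.4 and 139.8 in FM and 250.3, 258 and 239.6 in Starv, with a log2 fold change of 0.87 ± 0.136 (SE), adjusted p = 0.000718. The media did not overlap in either line, and the call was kept in each of the 24 alternatives in both lines. Slc17a5, which encodes sialin, the sialic acid exporter, had 93.9, 94.3 and 93.2 normalized counts in shRenilla FM and 195, 182 and 139 in Starv, with a log2 fold change of 0.87 ± 0.187 (SE), adjusted p = 0.00625. This call was kept in each of the 24 alternatives. In shBruce MEFs, Slc17a5 had 84.9, 78.5 and 103 in FM and 113, 109 and 157 in Starv, and a log2 fold change of 0.52 ± 0.194 (SE), adjusted p = 0.0725, which did not pass the test although the libraries did not overlap. The difference between the lines in this response was -0.36 (95% interval -0.94 to 0.22), adjusted p = 0.806.

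Slc36a1 and Clcn7 rose less, in both lines. Slc36a1, a proton-coupled amino acid transporter, had 474, 498 and 545 normalized counts in shRenilla FM and 727, 737 and 639 in Starv (log2 fold change 0.47 ± 0.13 (SE), adjusted p = 0.0245), and 406, 395 and 399 in shBruce FM and 482, 487 and 629.7 in shBruce Starv (0.42 ± 0.132 (SE), adjusted p = 0.0361). Clcn7, the chloride-proton exchanger of lysosomes, had 1213, 1348 and 1333 in shRenilla FM and 1892, 1793 and 1777 in Starv (0.49 ± 0.146 (SE), adjusted p = 0.0355), and 1084, 1142 and 1054 in shBruce FM and 1181, 1450.0 and 1894 in shBruce Starv (0.47 ± 0.146 (SE), adjusted p = 0.0355). The media did not overlap for either gene in either line. Both genes hold the E-boxes printed above. These calls were less stable than those of Ctns and Slc38a9. In shRenilla MEFs the Clcn7 call was lost when any shRenilla library or shBruce FM replicate 1 or 2 was left out, and the Slc36a1 call when any shRenilla FM library or shRenilla Starv replicate 1 or 2 was left out, while the log2 fold changes stayed within 0.44 to 0.51 and 0.43 to 0.53. In shBruce MEFs the Clcn7 call held only without shRenilla FM replicate 2 or shBruce Starv replicate 1 or 2, and the Slc36a1 call only without shRenilla Starv replicate 3 or shBruce Starv replicate 1 or 2, and each was lost when any other library was left out, with log2 fold changes within 0.27 to 0.60 for Clcn7 and 0.27 to 0.48 for Slc36a1.

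**Figure D2:**
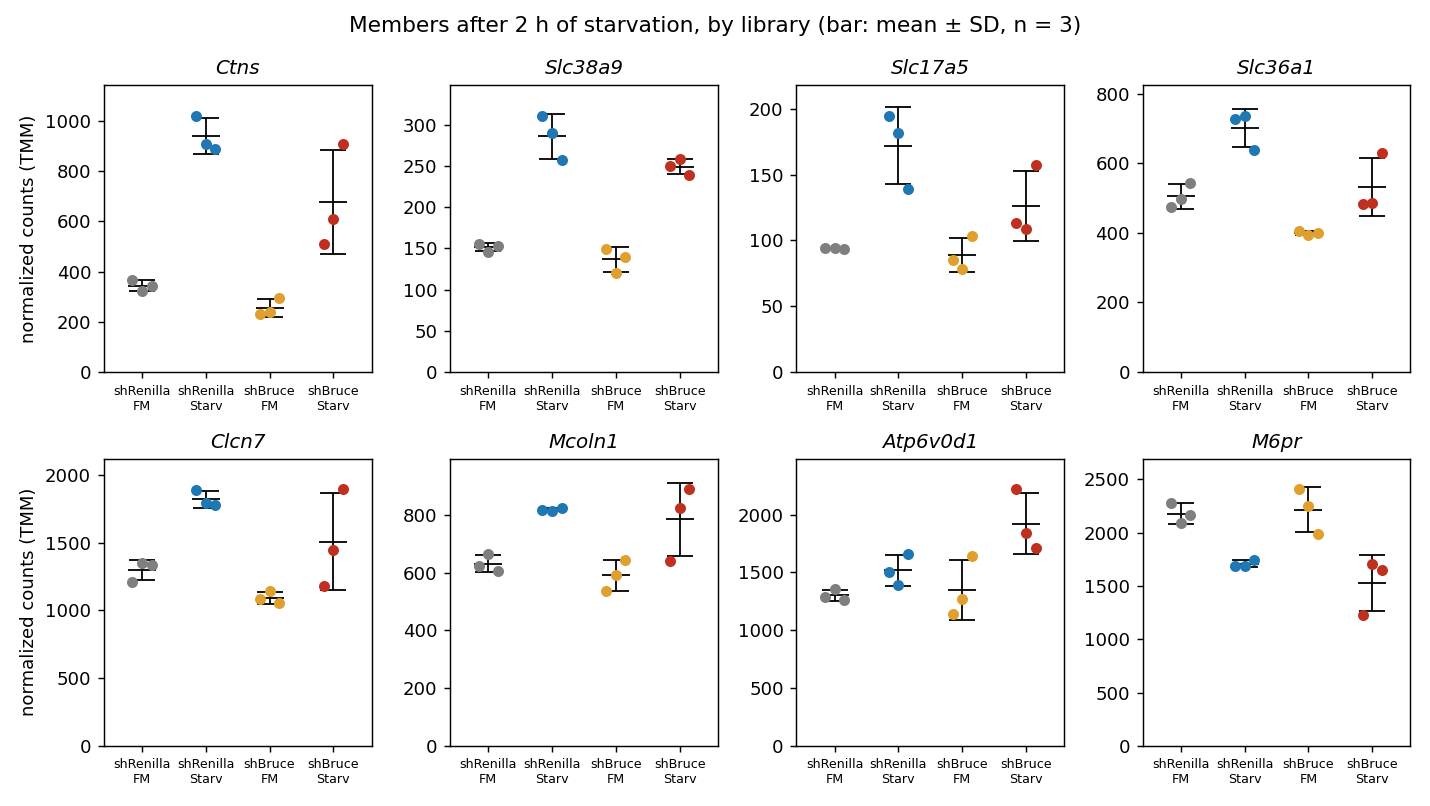
Normalized counts of 8 genes in each of the 12 libraries, with points for libraries and bars for the mean ± SD (n = 3) of each condition, and axes that start at 0. Ctns and Slc38a9 lie higher in every starved library than in any fed library of the same line, while M6pr lies lower in starved libraries.

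In shBruce MEFs, 7 of the 39 genes rose and 3 fell after starvation, beside 23% of all genes tested that were called, 12.4% as higher and 10.6% as lower. With upper-quartile normalization 11 rose and 1 fell, but this setting also moved the median log2 fold change of all genes tested from 0.021 to 0.11. With the length and GC trend removed 7 rose and 4 fell, beside 33% of all genes tested. The median log2 fold change of the 39 genes was 0.19, beside 0.021 over all genes tested, and the media did not overlap in 15 of the 39, beside 30.9% of all genes tested. The count of called genes was 3 without shBruce FM replicate 1 or 2, 4 without shRenilla FM replicate 1 or 3 or shRenilla Starv replicate 1 or 2, and 6 without shBruce FM replicate 3. Besides Ctns, Slc38a9, Clcn7 and Slc36a1, the genes that rose were Atp6v0d1, which couples the V0 rotor to the stalk, Atp6ap2, the prorenin receptor and V-ATPase accessory protein, and Mcoln1, the calcium channel mucolipin 1. Atp6v0d1 had 1139, 1271 and 1639 normalized counts in FM and 2218, 1840.5 and 1708 in Starv (log2 fold change 0.51 ± 0.147 (SE), adjusted p = 0.0246). Atp6ap2 had 2487, 1941 and 2849 in FM and 3012, 3445 and 3397 in Starv (0.44 ± 0.137 (SE), adjusted p = 0.0347). The media did not overlap for these genes. The Atp6v0d1 call was lost without shBruce FM replicate 1 or 2 or shBruce Starv replicate 1 (log2 fold change within 0.38 to 0.67 over all 12 fits that left out a library), and the Atp6ap2 call without shRenilla FM replicate 1 or 3, shRenilla Starv replicate 1 or 2, shBruce FM replicate 1 or 2 or shBruce Starv replicate 2 (0.30 to 0.57).

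Mcoln1 had 536, 593 and 643 normalized counts in shBruce FM and 642, 824 and 889 in shBruce Starv, and here the media overlapped, since shBruce Starv replicate 1 lay below the highest FM library. The log2 fold change was 0.41 ± 0.132 (SE), adjusted p = 0.0375, and the call was lost without any library other than shBruce FM replicate 3 or shBruce Starv replicate 1 (within 0.31 to 0.52). In shRenilla MEFs, Mcoln1 had 622, 665 and 608 in FM and 819, 814 and 824 in Starv, without overlap, and a log2 fold change of 0.38 ± 0.131 (SE), adjusted p = 0.0656. Only the value in shBruce passed the test, and the difference between the lines was 0.039 (95% interval -0.36 to 0.44), adjusted p = 0.959.

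Of the genes that fell in shBruce MEFs, M6pr, the cation-dependent mannose 6-phosphate receptor, had 2406, 2252 and 1992 normalized counts in FM and 1223, 1710.3 and 1651 in Starv, without overlap, and a log2 fold change of -0.53 ± 0.131 (SE), adjusted p = 0.011. In shRenilla MEFs it had 2281, 2088 and 2170.3 in FM and 1692, 1690.1 and 1744 in Starv, also without overlap, and -0.35 ± 0.131 (SE), adjusted p = 0.0825. The call in shBruce was lost without shBruce FM replicate 1 (within -0.62 to -0.41 over the 12 fits). Tpcn1, a sodium and calcium channel, had 500.1, 536 and 655 in shBruce FM and 466, 401 and 421 in Starv (-0.40 ± 0.133 (SE), adjusted p = 0.0469), and Atp6v0a2 had 1582, 1653 and 1652 and 1231, 1173 and 1439.7 (-0.35 ± 0.106 (SE), adjusted p = 0.0313). Neither gene overlapped between the media. The Tpcn1 call was lost without any library other than shBruce FM replicate 1 or shBruce Starv replicate 1 (within -0.48 to -0.28), and the Atp6v0a2 call without shRenilla FM replicate 1 or 3, shRenilla Starv replicate 1 or 2, any shBruce FM library or shBruce Starv replicate 2 (within -0.44 to -0.29). In shRenilla MEFs none of the 39 genes was called as lower with TMM alone, though M6pr, at -0.41 (adjusted p = 0.00724), Atp6v0a2 and Atp6v1e1 were once the length and GC trend was removed. Atp6v0a2 had 1615, 1626 and 1621 in FM and 1373, 1414 and 1300.4 in Starv (-0.25 ± 0.105 (SE), adjusted p = 0.122).

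The log2 fold changes of the 17 V-ATPase genes tested lay between -0.39 (Atp6v0e) and 0.46 (Atp6v1b2) in shRenilla and between -0.35 (Atp6v0a2) and 0.51 (Atp6v0d1) in shBruce. In the V0 sector, Tcirg1 had a log2 fold change of -0.29 ± 0.15 (SE), adjusted p = 0.2 in shRenilla and -0.025 ± 0.15 (SE), adjusted p = 0.925 in shBruce, and Atp6v0a1 0.18 ± 0.155 (SE), adjusted p = 0.467 and -0.018 ± 0.156 (SE), adjusted p = 0.949. In the V1 sector, which holds the ATP-binding A and B subunits, none of the 8 genes was called in either line, and Atp6v1b2, a B subunit gene, had the highest value in both lines (0.46 in shRenilla and 0.40 in shBruce). Among the glycoproteins, none of the 7 genes was called in either line, and Lamp1 had 0.081 ± 0.0997 (SE), adjusted p = 0.617 in shRenilla and 0.19 ± 0.0998 (SE), adjusted p = 0.197 in shBruce, and Lamp2 0.16 ± 0.127 (SE), adjusted p = 0.406 and 0.23 ± 0.127 (SE), adjusted p = 0.202. On the same log2 scale, Cd63 had -0.25 in shRenilla and 0.51 in shBruce, Scarb2 0.45 and -0.13, and the other 3 genes of this class, Laptm4a, Laptm4b and Tmem192, lay between -0.056 and 0.038 in shRenilla and between 0.12 and 0.30 in shBruce.

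Of the transporters that were not called in either line, Npc1, the lysosomal cholesterol exporter, had a log2 fold change of 0.40 in shRenilla and 0.17 in shBruce. Lmbrd1, which takes part in the export of cobalamin, had 0.25 and 0.27, Mfsd8, mutated in a late-infantile neuronal ceroid lipofuscinosis, 0.18 and 0.19, and Cln3 -0.21 and -0.31. Of the channels, Tpcn2 had 0.12 and -0.14, and Ostm1, the beta subunit of the exchanger formed by Clcn7, 0.28 and 0.12. Igf2r had 0.28 and -0.11, and Atp6ap1 -0.0091 and 0.17. The comparisons between the lines use the same libraries as these comparisons of media.

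**Figure D3:**
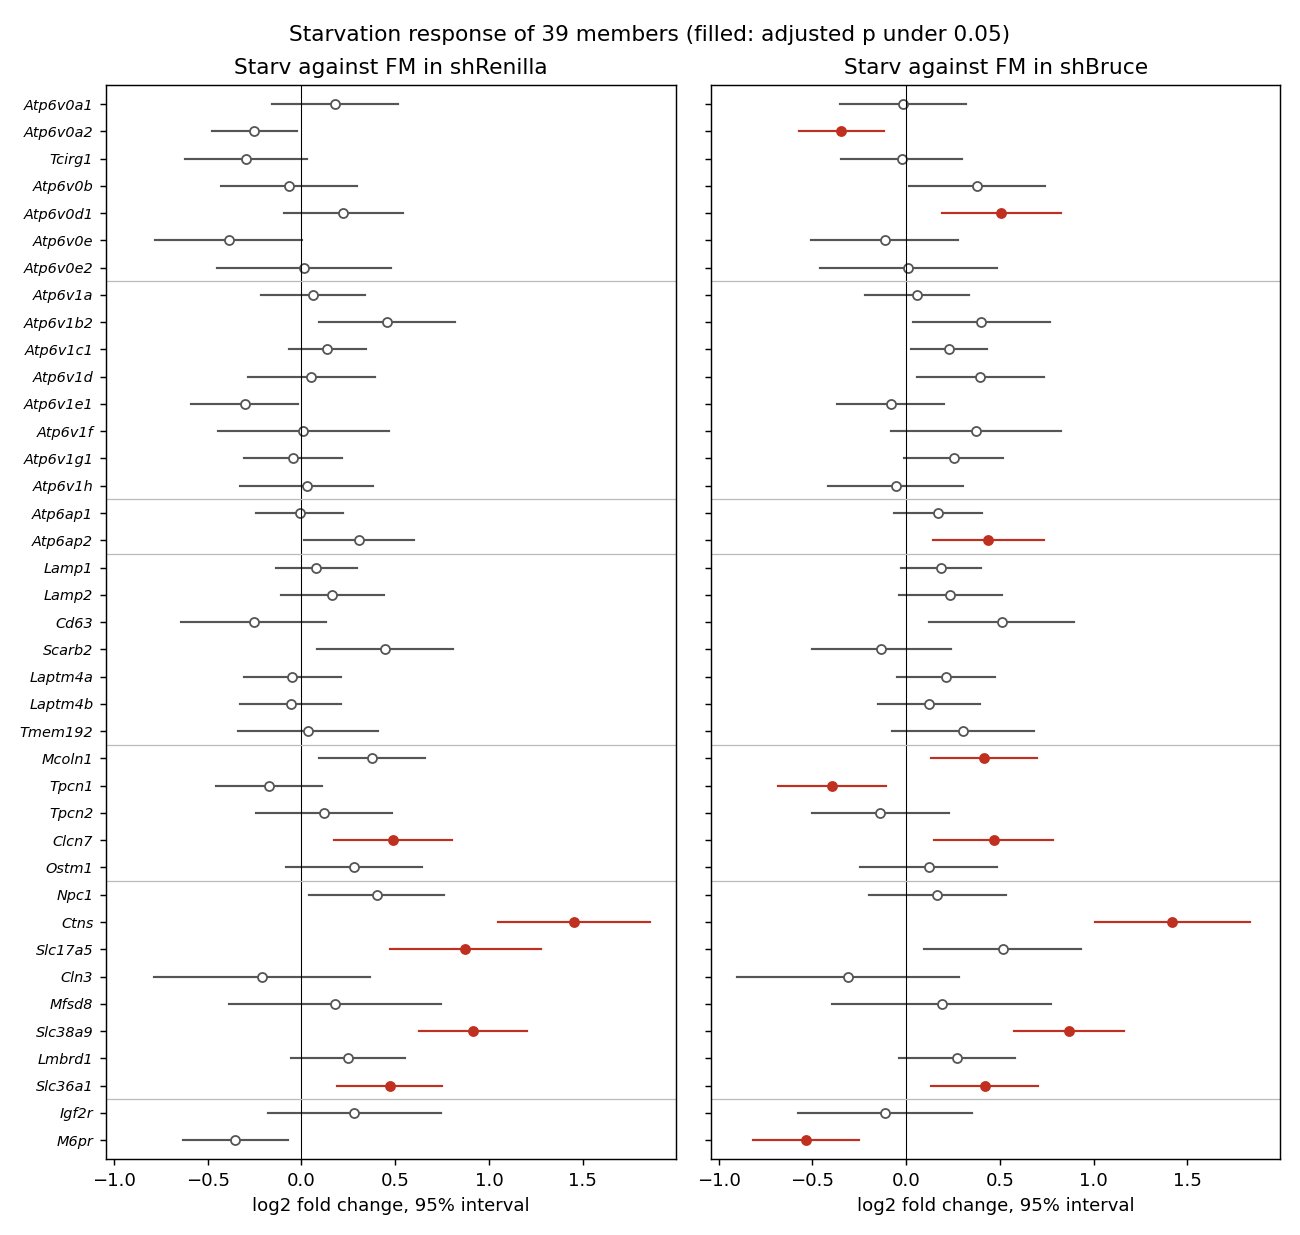
Log2 fold change, Starv against FM, of the 39 genes in shRenilla (left) and shBruce (right), ordered by role from V0 at the top to the mannose 6-phosphate receptors at the bottom, with 95% intervals and filled points for an adjusted p under 0.05. The transporter gene Ctns stands farthest from 0 in both panels, at 1.45 and 1.42, and most V-ATPase intervals include 0.

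Genes with and without the E-box were set side by side where a promoter was known. The 10 genes with it had a median log2 fold change of 0.15 in shRenilla, of which 2 were called, and 0.28 in shBruce, of which 4 were called. The 20 tested genes without it had 0.14, with 3 called, and 0.22, with 3 called. No test was made of this difference. Over all genes tested, 17% were called in shRenilla, 9.69% as higher and 7.27% as lower. In shBruce 23% were called, 12.4% as higher and 10.6% as lower. Genes of the pathway outside the 40 are given here from lists, to be read beside the same shares. Of 15 tested genes of the TFEB family and of lysosomal nutrient sensing, 3 rose in shRenilla and 4 in shBruce and 0 fell in either. Fnip1, a partner of folliculin at the lysosome, had 1.52 ± 0.203 (SE), adjusted p = 0.00027 in shRenilla and 2.22 ± 0.209 (SE), adjusted p = 1.5e-05 in shBruce. Of 36 other lysosomal membrane genes, 5 rose and 1 fell in shRenilla, and 6 rose and 3 fell in shBruce, with Slc38a7, a glutamine transporter, at 1.02 and 1.08. Of 48 genes of soluble hydrolases and their cofactors, 6 rose and 1 fell in shRenilla, and 13 rose and 1 fell in shBruce, with Gla, alpha-galactosidase A, at 0.71 and 0.89. Of 10 V-ATPase assembly factors and regulators, 0 were called in shRenilla and 1, Rogdi, rose in shBruce (0.58 ± 0.195 (SE), adjusted p = 0.0493). Of 7 tissue-restricted V-ATPase subunits, 1 passed the filter, Atp6v1g2, with 0.79 in shRenilla, not called, and 1.37 ± 0.293 (SE), adjusted p = 0.00497 in shBruce.

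The response to starvation was then compared between the lines as an interaction of line and medium. None of the 39 genes was called by edgeR, beside 0% of the genes tested, and 2 of the 39 had an unadjusted p under 0.05, beside 3.9% of all genes tested. The Wald test of DESeq2 and limma-voom also called 0. The 2 genes were Cd63, at 0.76 (95% interval 0.22 to 1.31, adjusted p = 0.806), and Scarb2, the receptor of beta-glucocerebrosidase, at -0.58 (95% interval -1.10 to -0.058, adjusted p = 0.806). With the length and GC trend removed, Cd63 was at 0.47 and Scarb2 at -0.46 (adjusted p = 0.764 for each). For Ctns the interaction was -0.034 (95% interval -0.60 to 0.54), and for Slc38a9 -0.049 (95% interval -0.46 to 0.36). For Ctns and Slc38a9, any difference between the lines within these intervals is compatible with the counts, so equal responses were not shown.

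The lines were next compared within each medium, to ask how knockdown of BRUCE bears on the genes. In FM, none of the 39 genes was called by edgeR, beside 0% of all genes tested, and 5 had an unadjusted p under 0.05, beside 14.4% of all genes tested. As Birc6 was not called either, 0 calls in FM do not show that the genes were alike. With the length and GC trend removed, Birc6 was called in FM, at -1.36 (adjusted p = 0.000129). In that fit 0 of the 39 genes were called, beside 2 of all 12154 genes tested, which does not show that the genes were alike either. The lines did not overlap in 17 of the 39, beside 33.4% of all genes tested. DESeq2's Wald test called 1 and limma-voom 0. The gene with the smallest p was Lamp2, with 7392, 5809 and 6766 normalized counts in shRenilla FM and 4801, 4192 and 4684 in shBruce FM, without overlap (log2 fold change -0.55 ± 0.127 (SE), adjusted p = 0.246). The exact permutation test gave p = 0.1, the smallest that 3 libraries against 3 allow. Atp6ap2 followed, at -0.40 ± 0.136 (SE), adjusted p = 0.299, and toward higher values Tpcn1, at 0.29 ± 0.131 (SE), adjusted p = 0.333, and Atp6v1f, at 0.43 ± 0.211 (SE), adjusted p = 0.363. Lamp1 had 13738, 13730.0 and 13666 normalized counts in shRenilla FM and 12032, 12335 and 11305 in shBruce FM. The shBruce libraries were all the lower ones, and the log2 fold change was -0.21 ± 0.0998 (SE), adjusted p = 0.359.

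In Starv, 3 of the 39 genes were higher and 4 lower in shBruce than in shRenilla, beside 23.9% of all genes tested that were called, 12.8% as higher and 11.2% as lower. The lines did not overlap in 11 of the 39, beside 34.9% of all genes tested. Cd63 had 6552, 6672 and 8394 normalized counts in shRenilla Starv and 16875, 12588 and 9629 in shBruce Starv (0.85 ± 0.18 (SE), adjusted p = 0.0225), and Atp6v1f, the F subunit of the V1 rotor, had 441, 405 and 565 and 1098, 823 and 531 (0.79 ± 0.212 (SE), adjusted p = 0.027). Atp6v0b had 1509, 1397 and 1914 and 2931, 2449 and 1822 (0.58 ± 0.169 (SE), adjusted p = 0.0312). For Cd63 the groups did not overlap, whereas for Atp6v1f and Atp6v0b they did, with shBruce Starv replicate 3 the lowest shBruce library for each of the 3 genes.

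Lower in shBruce Starv were Igf2r, the cation-independent mannose 6-phosphate receptor, with 5592, 5390.5 and 4025 normalized counts in shRenilla and 2138, 2257 and 4012 in shBruce (-0.83 ± 0.215 (SE), adjusted p = 0.0255), and Scarb2, with 881, 862 and 682 and 367, 415 and 581 (-0.82 ± 0.171 (SE), adjusted p = 0.0225). Lamp2 had 7527, 7698 and 7157 and 4695, 5379 and 6009 (-0.48 ± 0.127 (SE), adjusted p = 0.0268), and Slc36a1 had -0.39 on the log2 scale, from the Starv counts of its comparison of media (adjusted p = 0.0452). None of these 4 genes overlapped between the lines, though shBruce Starv replicate 3 came close to the lowest shRenilla library for Igf2r and Slc36a1. The calls depended on particular libraries, although the direction did not: when shRenilla Starv replicate 1 or 2 or shBruce Starv replicate 2 was left out, 0 of the 39 genes were called, and the count was 2 if shBruce Starv replicate 1 was omitted and 18 if replicate 3 of that group was. The share of all genes called in these fits is not given, so these counts cannot be read as particular to the 39 genes. Over the 12 fits that left out a library, the log2 fold change stayed within -1.04 to -0.71 for Scarb2, -1.19 to -0.69 for Igf2r, -0.57 to -0.40 for Lamp2, -0.54 to -0.33 for Slc36a1, 0.61 to 1.03 for Cd63, 0.51 to 1.02 for Atp6v1f and 0.40 to 0.74 for Atp6v0b. The call of Birc6 was also lost without shRenilla Starv replicate 1 or 2, at -2.20 to -1.77 over the same fits. The Slc36a1 call was lost without any of the 6 FM libraries as well. With the Starv libraries alone in the fit, 0 were called.

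**Figure D4:**
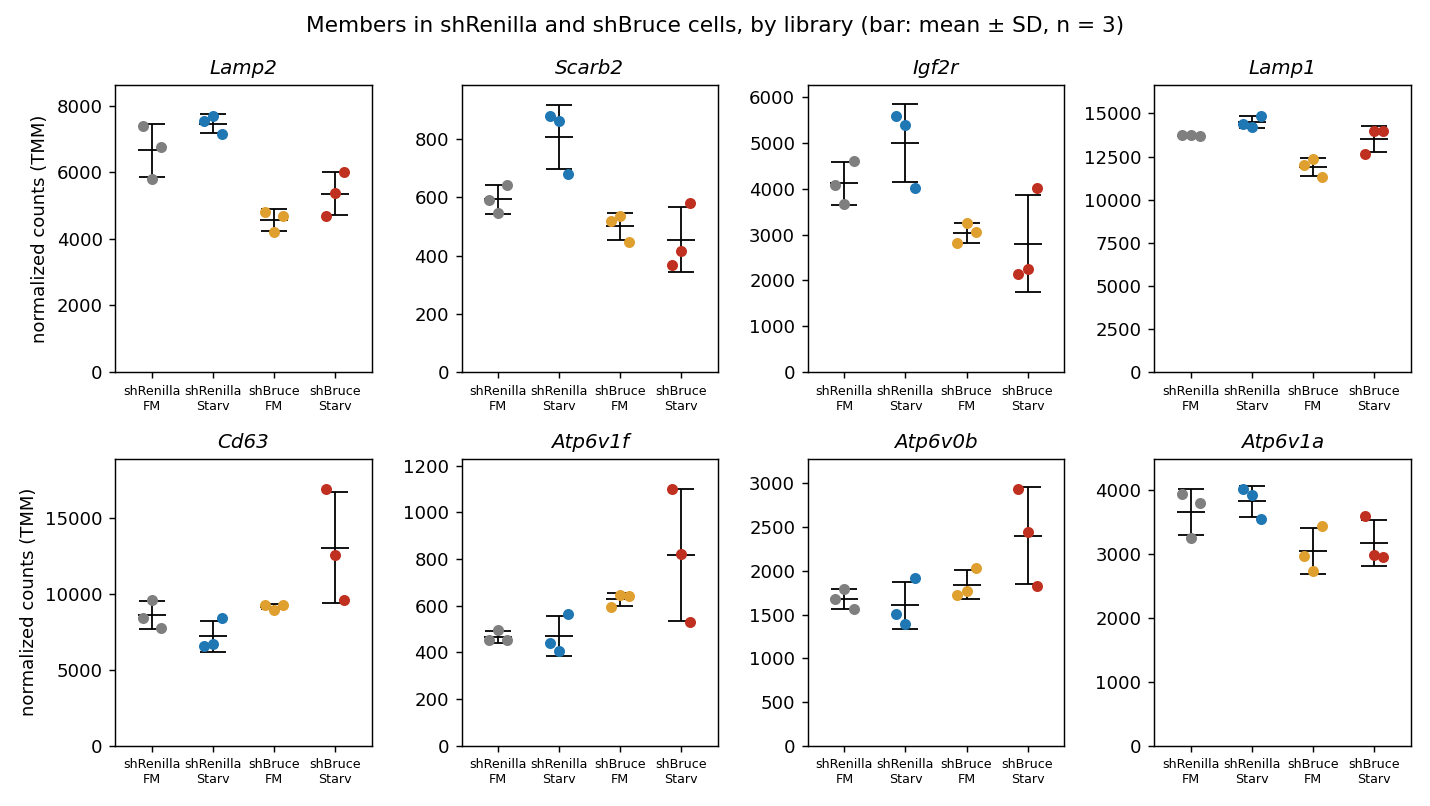
Normalized counts of 8 genes in each of the 12 libraries, with points for libraries and bars for the mean ± SD (n = 3), and axes that start at 0. Lamp2 lies lower in every shBruce library than in any shRenilla library of the same medium, and in shBruce Starv the libraries of Cd63, Atp6v1f and Atp6v0b are spread widely.

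Over both media, 3 genes were higher and 8 lower in shBruce, beside 32.1% of all genes tested that were called, 16.3% as higher and 15.7% as lower. The 8 lower genes were Igf2r (-0.64), Scarb2 (-0.53), Lamp2 (-0.51), Ctns (-0.45), Slc36a1 (-0.37), Ostm1 (-0.36), the partner of Clcn7, Atp6ap2 (-0.33) and Atp6v1a (-0.27), the catalytic A subunit. The 3 higher genes were Atp6v1f (0.61), Cd63 (0.47) and Atp6v0b (0.36). Adjusted p ranged from 0.00944 for Lamp2 to 0.0407 for Atp6v1a, and for Lamp2 the exact permutation test within media gave p = 0.005, the smallest it allows. Calls of Lamp2, Scarb2, Igf2r and Atp6v1f held without each of the 12 libraries in turn, but all 4 were lost when the length and GC trend was removed, at -0.15 (adjusted p = 0.0911), -0.25 (adjusted p = 0.0642), -0.34 (adjusted p = 0.0616) and 0.14 (adjusted p = 0.229). The count of called genes was 4 without shRenilla FM replicate 3 or shRenilla Starv replicate 2, 5 without shRenilla Starv replicate 1, 6 without shRenilla FM replicate 1, 7 without shBruce FM replicate 1 or 2, and 19 without shBruce Starv replicate 3.

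The differences between the lines varied with transcript length. In Starv, Pearson's r between the log2 fold change and log2 transcript length was -0.70 over the 39 genes and -0.52 over the 12050 tested genes with a length, which is a description across genes that share libraries. The median log2 fold change was 0.34 for the 11 genes with transcripts of at most 2000 bases, -0.13 for the 18 up to 4000 bases, and -0.23 for the 10 longer ones. After a trend on length and GC content was removed from each library, r was -0.0048 over the 39 genes. The step is built to remove the relation over all genes (r = -0.016), so this value is no test of it. It removes length and GC content together, and the part of each in the change of a gene was not tested. Over the 39 genes r was then 0.24 in FM, 0.10 over both media and -0.24 for the interaction. With TMM alone these values were -0.421, -0.635 and -0.695. With the trend removed, 2 of the 39 genes were called in Starv, beside 5.52% of all genes tested, which were 23.9% before this step. They were Scarb2 at -0.48 (adjusted p = 0.0407) and Slc36a1 at -0.69 (adjusted p = 0.0414), whereas Cd63 was at 0.31 (adjusted p = 0.0605), Igf2r at -0.46 (adjusted p = 0.0804), Lamp2 at -0.052 (adjusted p = 0.689), Atp6v1f at 0.15 (adjusted p = 0.397) and Atp6v0b at 0.0091 (adjusted p = 0.961). The calls depended on the transcript taken for the length: with the longest transcripts Slc36a1 was at -0.22 (adjusted p = 0.147) and no longer called, and Cd63 was at 0.49 (adjusted p = 0.0381) and called, as was Scarb2 at -0.49 (adjusted p = 0.0381). Over both media, 4 of the 39 genes were then called, beside 10.8% of all genes tested: Lamp1 at -0.22 (adjusted p = 0.0313), Ctns at -0.39 (adjusted p = 0.0485) and Slc36a1 at -0.60 (adjusted p = 0.018) as lower, and Atp6v0a2 at 0.18 (adjusted p = 0.0496) as higher. The starvation responses of Ctns were 1.40 (adjusted p = 9.43e-05) in shRenilla and 1.38 (adjusted p = 0.000104) in shBruce after the same step, and those of Slc38a9 0.73 (adjusted p = 0.00579) and 0.91 (adjusted p = 0.00157). In shBruce the starvation calls of Mcoln1, at 0.34 (adjusted p = 0.0882), and Slc36a1, at 0.33 (adjusted p = 0.143), were lost with this step, while Slc17a5, at 0.49 (adjusted p = 0.0402), Cd63, at 0.31 (adjusted p = 0.0236), and Atp6v1e1, at -0.26 (adjusted p = 0.0181), were called. With the longest transcripts Slc36a1 was called, at 0.44 (adjusted p = 0.00391), and Cd63 was not, at 0.30 (adjusted p = 0.0537).

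**Figure D5:**
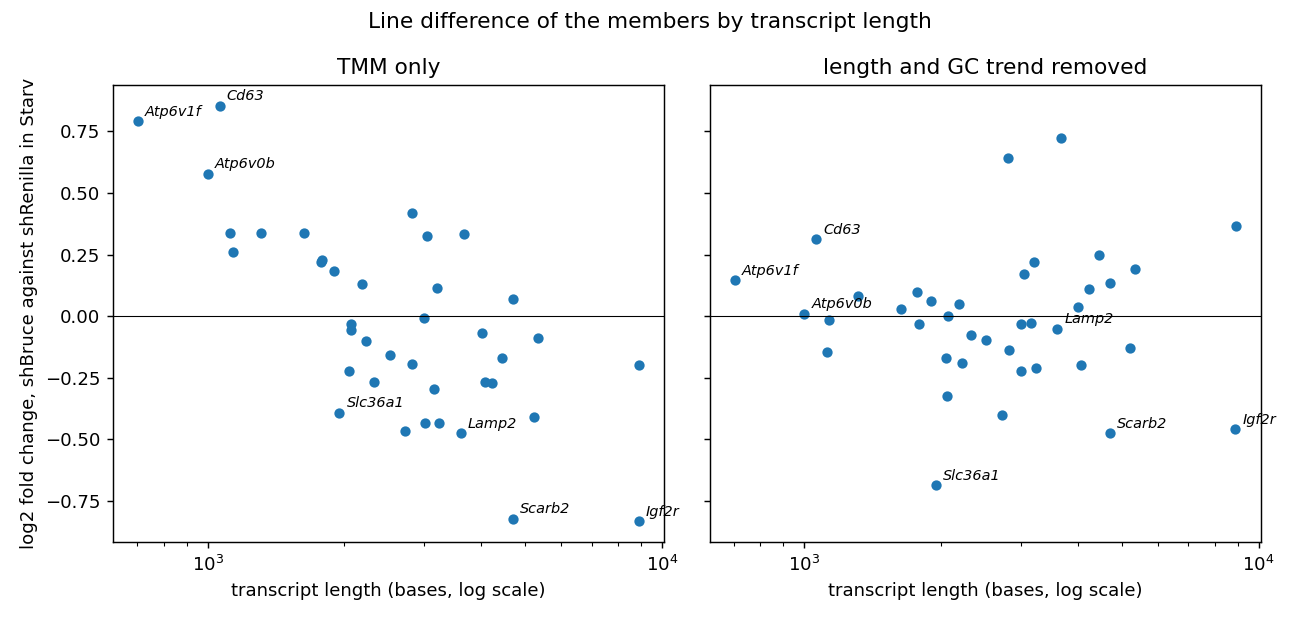
Log2 fold change, shBruce against shRenilla in Starv, of the 39 genes against transcript length on a log scale, with TMM normalization only (left) and with a length and GC trend removed from each library (right). On the left the short Cd63, Atp6v1f and Atp6v0b lie highest and the long Igf2r and Scarb2 lowest, with r = -0.70. On the right the values no longer fall with length, with r = -0.0048, which the removal of the trend is built to bring about.

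Between the lines in Starv, 23.9% of all genes tested were called, 12.8% as higher and 11.2% as lower in shBruce. In the lists outside the 40 genes, this difference was called for 1 higher and 4 lower of 10 V-ATPase assembly factors and regulators. Among them was Dmxl1, a rabconnectin, at -1.11 ± 0.273 (SE), adjusted p = 0.0234. It was called for 3 higher and 5 lower of 36 other lysosomal membrane genes, for 1 higher and 6 lower of 48 genes of hydrolases and cofactors, and for 4 higher and 1 lower of 15 genes of the TFEB family and nutrient sensing. After the trend was removed, when 5.52% of all genes tested were called, the calls in these lists were 0 higher and 1 lower, 1 and 1, 1 and 4, and 0 and 0.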

How the data were processed

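The authors isolated RNA, prepared poly(A) libraries, sequenced single-end reads, removed rRNA reads, mapped the rest to mm10 with STAR 2.4.0d and counted reads per gene with HTSeq 0.5.4p3, per the labels and the study's methods. The deposited values are raw read counts, with 12 columns and 24062 symbols, and 0 columns were left unused. The annotation and strand setting are not given in the sources used here. The genes and the lists were chosen with earlier results of these data known.

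Counts were fitted with edgeR 4.0.16 (R 4.3.3), with TMM, filterByExpr, a joint fit of 12 libraries and two-sided quasi-likelihood tests. P-values were adjusted by the Benjamini-Hochberg method over 12154 genes, at a level of 0.05. Normalized counts are counts over the effective size relative to its geometric mean. Intervals are at 95%. Lengths came from GENCODE M21, and were known for 99.1% of genes tested. The fits were tested on simulated data, in which intervals held their level but part of the changed genes, mostly those of low counts, were not called, short of the recovery first required. The text names all genes of the set by role, the called genes with values, or, where fewer than 2 were called in a direction, the 2 of smallest p, and up to 3 called genes of each list outside it. DESeq2 1.42.0 and limma 3.58.1 served as alternatives, with other normalizations and filters, the replicate number as a block, each library left out, and a spline trend (4 df) on length and GC content removed. That trend with the longest transcripts was added after the data were seen. Sequence windows and figures were made with Python 3.11.15, pandas 2.3.3 and matplotlib 3.10.9.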

Additional observations from a re-analysis of the deposited data

How the results depend on the processing

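Counts of called genes depended on the setting. Here and below, most of them come without the share of all genes tested that were called. Such counts describe how stable the calls were and are not a result about these genes as a set. With the length and GC trend removed, the share was 25.4% for starvation in shRenilla. It was 5.52% in Starv between the lines and 10.8% over both media. With TMM alone these shares were 17%, 23.9% and 32.1%. For starvation in shRenilla (5 called), the count was 8 with upper-quartile normalization and with the DESeq2 Wald test, 21 with limma-voom and sample quality weights, 3 with no filter, 17 with only the groups compared, 9 (6 higher, 3 lower) with the length and GC trend removed, also with the longest transcripts, and 3 to 12 with 1 library left out. For starvation in shBruce (10 called), it was 4 with no filter, 2 with only the groups compared and 3 to 12 with 1 library left out. In FM between the lines (0 called), it was 1 with the Wald test, 9 with quality weights and 3 with only the groups compared, and 0 to 0 with 1 library left out. In Starv between the lines (7 called), it was 20 with quality weights, 0 with only the groups compared, 2 with the trend removed (Scarb2 and Slc36a1) and 2 with the longest transcripts (Scarb2 and Cd63), 0 with trend and block together, and 0 to 18 with 1 library left out. Over both media (11 called), it was 20 with quality weights, 4 with the trend removed, 1 with trend and block, 3 with the longest transcripts, and 4 to 19 with 1 library left out. The interaction stayed at 0 in its 23 alternatives. The causes were not tested beyond what the construction of each setting shows. Precision was low for genes with few counts, such as Cln3, with 35.3 to 75.4 normalized counts per library and an SE of 0.267 for starvation in shRenilla.

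The replicate numbers showed no clear pairing of the libraries. The 18 correlations of deviations between same-numbered libraries were between -0.42 and 0.31 and 4 were above 0.1, and 3 of 12 libraries deviated most alike with their own number. The deviations still held the length trend of each library, so this check cannot show that same-numbered libraries were handled apart. With the replicate block, the counts were 5, 5, 0, 5, 8 and 0 in the order above with the interaction last.

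Among genes called with TMM alone or in the setting named, directions turned for Atp6v0b in Starv between the lines, -0.0068 with the trend removed on longest transcripts. Over both media Atp6v0b turned to -0.063 with the trend removed, -0.063 with trend and block and -0.075 with the longest transcripts. Directions also turned over both media for Atp6v1a, at 0.042, 0.040 and 0.026 under the same settings, and for Atp6v0a2, at 0.18 with the trend removed. Genes called in neither fit turned too. Examples over both media with the trend removed are Slc38a9, from -0.18 to 0.28, and Tmem192, from 0.21 to -0.15.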
